A study of Danio rerio with 6 samples.

Results

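The vehicle arm of a caudal fin regeneration experiment was described across all genes, as the transcriptome of zebrafish fins that had received DMSO, the solvent of the compound under study. Its members were the 3 libraries that the labels call DMSO, out of 6 in the series, and the other 3 (Galloflavin) were not compared with them. The fish were wild-type AB adults of 3 to 12 months, males and females in equal amounts. They were injected intraperitoneally with DMSO, their tail fins were cut, and they were kept at 33 °C. The tissue taken at 24 h was the regenerate together with 1 bony ray segment of the stump, so stump tissue was part of every library. Each library came from a pool of 10 fins, which averages over fish, and the labels place the pools in batches B1, B2 and B3. With 1 DMSO pool in each batch, pool and batch cannot be told apart. No uncut or uninjected fin was analysed here, so the values are levels and say nothing of what amputation or DMSO changed.

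After a zebrafish fin is cut, epidermal cells migrate over the stump and form a wound epidermis, and neutrophils and macrophages enter the tissue. Osteoblasts and fibroblasts near the cut lose part of their mature character and gather beneath the epidermis as the blastema, the proliferating tissue that rebuilds rays and connective tissue. Fgf, Wnt, retinoic acid, Igf, activin and Notch signals are known regulators of this step, and a fin ray is bone of dermal origin lined by osteoblasts that build it and osteoclasts that resorb it.

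The pools held 25332141 (B1), 29596335 (B2) and 17712157 (B3) reads in the 19822 genes of the table. The deposited value is a normalised count, in which 1 read was worth 0.0388, 0.0338 and 0.0530 in B1, B2 and B3. Zero reads for a gene leaves room for as many as 3, which is a normalised count of 0.117, 0.102 and 0.159. Such floors and the intervals below cover counting error only. At least 1 read was seen for 19718, 19738 and 19640 genes. The values are not divided by transcript length, so that an order of genes is an order of reads taken from the library and favours long transcripts.

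Reads were concentrated in few genes. The 10 genes with the most reads took 18.01%, 18.9% and 15.8% of the reads of B1, B2 and B3 (mean 17.6% ± 1.60, SD, n = 3). The top 100 took 36.2%, 36.9% and 33.8%, and the top 1000 took 64.1%, 64.2% and 62.8%. To reach 50% of the reads, 337 genes were needed in B1, 332 in B2 and 391 in B3. B3 was the least concentrated pool on each of these measures. By mean normalised count, 93 genes stood at 1000 or more with 34.9% of the reads, 1400 lay between 100 and 1000 with 34.7%, and 7891 lay between 10 and 100 with 27.4%. The remaining 6417 genes between 1 and 10 took 2.85%, and 4021 genes below 1 took 0.181%.

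**Figure D1:**
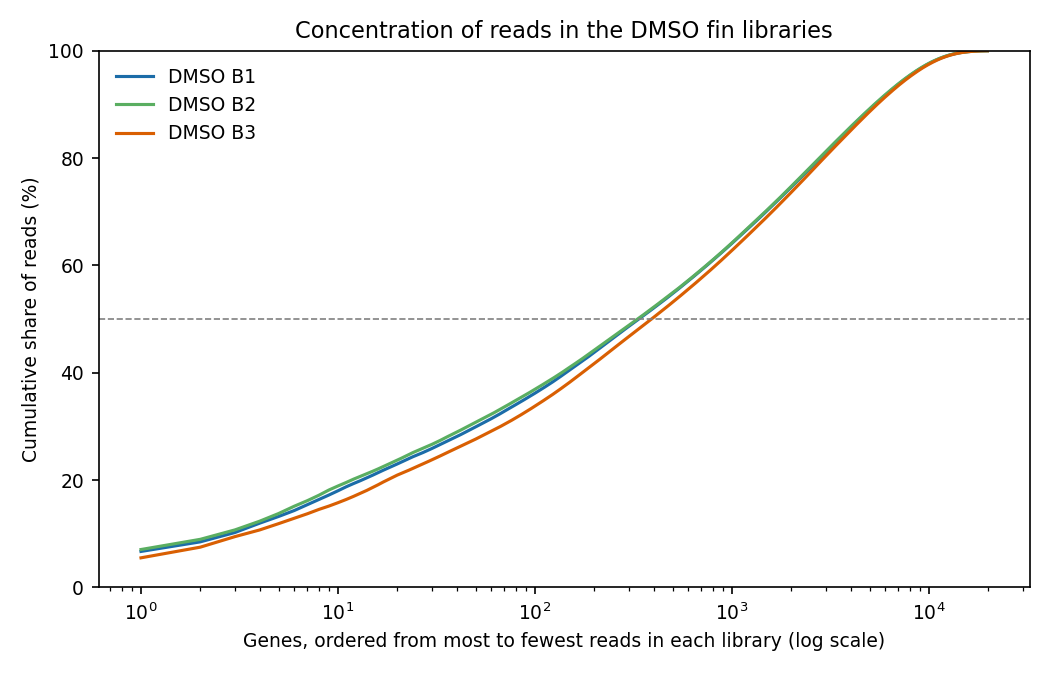
Cumulative share of reads (%, vertical axis) against the number of genes, ordered from most to fewest reads in each library (log axis), for the 3 DMSO pools. The dashed line marks 50%, which B1 and B2 cross at 337 and 332 genes and B3 at 391.

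Sorted into lists of genes by category, with a gene allowed in more than 1 list, the 79 epidermal genes took 17.3%, 18.2% and 13.9% of the reads in B1, B2 and B3 (mean 16.5% ± 2.24, n = 3). The 197 structural genes of cytoskeleton and matrix took 9.46%, 9.77% and 9.15% (9.46% ± 0.311). The 401 signalling genes took 1.93%, 2.18% and 2.35%, the 216 immune genes 1.33%, 1.26% and 1.502%, and the 46 bone genes 0.475%, 0.469% and 0.528%. The order of these 5 categories was the same in each pool, and no neighbouring pair overlapped. It depends on how genes were assigned, since the type I collagens of bone and dermis were listed as structural only. A set of 293 housekeeping genes, listed for scale, took 15.5% ± 1.22. Among the 100 genes with the most reads, 23 were epidermal, 20 structural, 33 housekeeping, 2 each bone, immune and signalling, and 26 were in none of the lists. In bulk tissue, fewer cells of a type and less RNA per cell cannot be told apart, so these shares are not shares of cells.

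**Figure D2:**
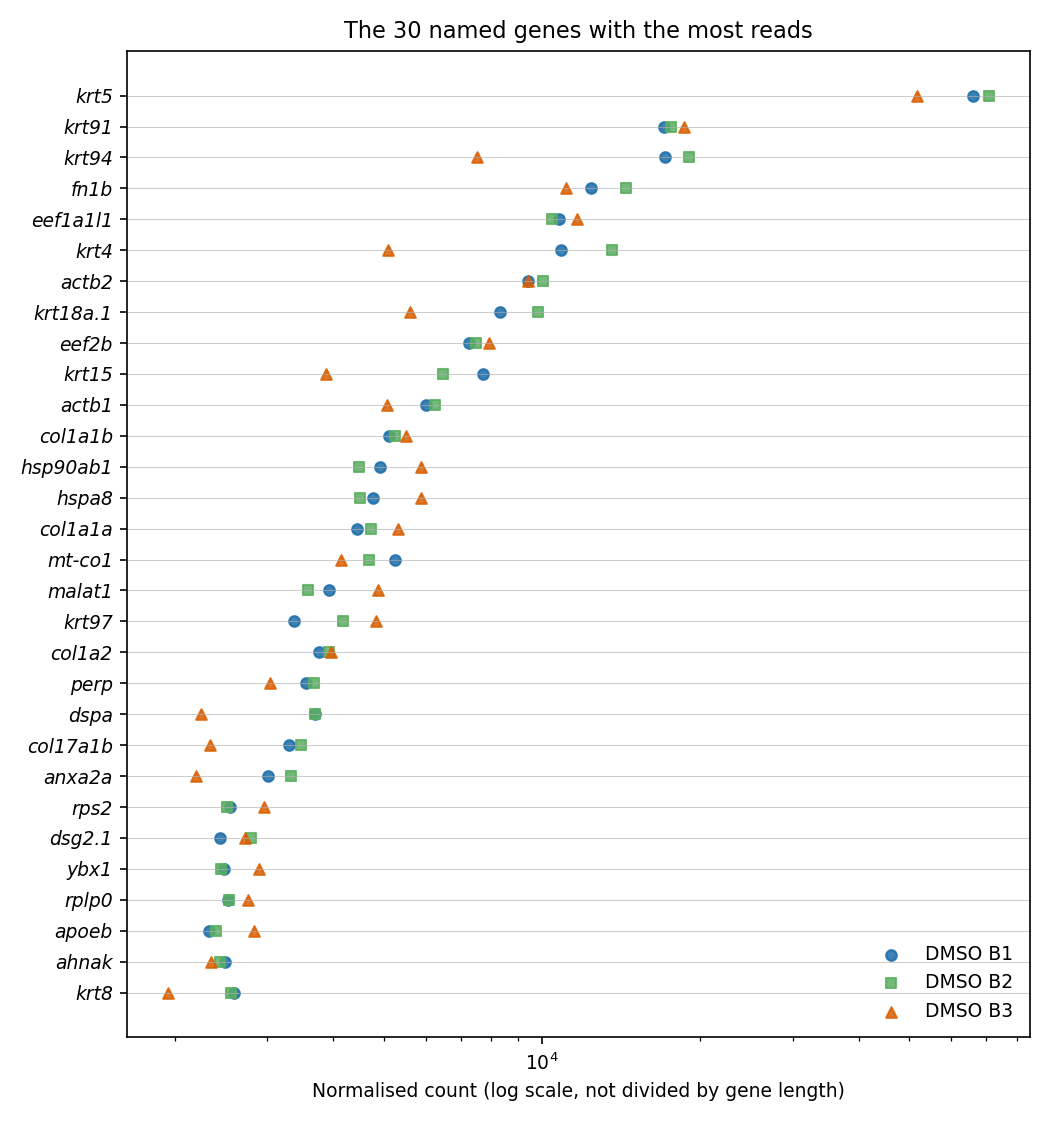
Normalised count (log axis, not divided by gene length) of the 30 named genes with the most reads, 1 symbol per DMSO pool. krt5 stands apart from the rest in every pool, and krt94, krt4, krt18a.1 and krt15 show B3 (triangle) well to the left of B1 and B2.

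Keratins, the intermediate filament proteins of epithelial cells, were the leading group. The list of 21 measured keratin genes took 13.9%, 14.8% and 10.9% of the reads, with B3 below both other pools. krt5 (ENSDARG00000058371), a type II keratin of the epidermis, ranked first in every pool with normalised counts of 65999, 70772 and 51797. Its share of reads was 6.71% in B1 (95% Wilson interval 6.70 to 6.72), 7.06% in B2 (7.06 to 7.07) and 5.52% in B3 (5.51 to 5.53), so the pools differed by far more than counting error. This single gene held 48.8% of the keratin reads, and the 6 highest keratins together held 92.4%. Keratin paralogs are alike in sequence, and how reads shared between them were counted is not given in the sources used here, so the split among them is uncertain.

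The keratins did not vary alike between pools. krt91 had normalised counts of 17059, 17609 and 18659, and its CV, the SD over the mean of the 3 pools, was 4.57%. krt94 had 17142, 19023 and 7523, a CV of 42.4%, and its ranks were 3, 2 and 8. krt4, a keratin of the superficial epidermis in zebrafish, had 10849, 13578 and 5080 (CV 44.1%) and ranks of 6, 6 and 14. In each of krt94 and krt4 the B3 value was below both others, while krt91 was highest there. The ratio of krt94 to krt91 reads was 1.00, 1.08 and 0.403, and that of krt4 to krt5 was 0.164, 0.192 and 0.0981.

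Other abundant keratins followed either pattern. krt15 had 7735, 6481 and 3888, krt18a.1 had 8302, 9831 and 5598, and krt93 had 1984, 2390 and 1272, each lowest in B3. krt97 was instead highest in B3, with 3371, 4171 and 4836. Among low keratins, krtt1c19e, a marker of basal epidermal cells in zebrafish, had 14.3, 20.8 and 113, a CV of 112%, with B3 above both others. krt17 had 145, 143 and 249, also highest in B3. Of the 14 keratins with a mean of at least 5, 8 were lowest in B3, where 44.3% of all 11749 such genes were lowest in B3, and 3 had a highest pool at least 2-fold the lowest, against 4.16% of all genes.

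Genes of the basal epidermis, the layer attached to the basement membrane, were all measured. All 21 members had a mean of at least 1, as did 15801 of all 19822 genes, and 13 were at 100 or more. Of all genes, 93 stood at 1000 or more and 1400 between 100 and 1000. col17a1b, the hemidesmosomal collagen, had normalised counts of 3296, 3474 and 2332, and the hemidesmosomal integrin subunits itga6b and itgb4 had 1119, 993 and 891 and 1001, 998.95 and 832. All 3 genes were lowest in B3. The share of the whole list was also lowest there, at 7.78%, 8.15% and 6.52% of the reads, of which krt5 made up 86.0%. Its members were divided. Of the 20 genes of this list with a mean of at least 5, 9 were lowest in B3 and 9 were highest there. Of all genes, 44.3% were lowest in B3 and 63.9% were highest in a pool other than B3. The anchoring fibril collagen col7a1 had 1121, 1284 and 1195. The transcription factor tp63, which maintains basal keratinocytes, had 442, 468 and 454 (CV 2.81%), and the epithelial adhesion gene epcam had 1084, 1079 and 1140. For tp63, epcam and E-cadherin (cdh1, at 866, 886 and 845) the 3 pools lay within a CV of 3.09%.

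Superficial epidermal genes took 1.49%, 1.72% and 0.887% of the reads, and krt4 alone made up 73.4% of them. Apart from krt4, the list was led by icn, an S100-type ictacalcin, at 1571, 1528 and 1076, followed by periplakin (ppl) at 626, 571 and 557 and envoplakin (evpla) at 210, 193 and 203. The last 2 of these, whose proteins link to desmosomes, differed little between pools. The claudin cldne, of the tight junctions of the outer layer, had 141, 145 and 144. Of 16 superficial genes with a mean of at least 5, 1 had a 2-fold spread, against 4.16% of all genes, and that was krt4.

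Junction genes took 2.23%, 2.32% and 2.09% of the reads, and 9 of them were among the top 100. The desmosomal gene perp had 3550, 3682 and 3029 and ranked 21 in each pool. The plaque protein desmoplakin (dspa) had 3699, 3702 and 2239, whereas the desmosomal cadherins dsg2.1 (2439, 2798 and 2717) and dsc2l (1908, 2263 and 1878) had CVs of 7.10% and 10.6%. For dspa B1 and B2 were nearly equal and B3 lay below them.

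Among structural genes the type I collagens took many reads and differed little between pools. Type I collagen, the main protein of bone and dermis, is encoded in zebrafish by col1a1a, col1a1b and col1a2. Their normalised counts were 4451, 4730 and 5315 for col1a1a, 5119, 5256 and 5502 for col1a1b, and 3766, 3926 and 3968 for col1a2, with CVs of 9.12%, 3.67% and 2.75%. All 3 genes had their order of pools in common, B1 lowest and B3 highest, although the differences were small. The type V collagen genes, whose product regulates fibril diameter, were lowest in B3, with col5a2a at 1994, 2020 and 1613 and col5a1 at 1327, 1479 and 995. The whole collagen list of 41 measured genes took 2.60%, 2.7004% and 2.73% of the reads (2.68% ± 0.0697).

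Within that list 4 of 33 genes with a mean of at least 5 had a 2-fold spread. All 4 were at least 2-fold above the mean of B1 and B2 in B3, against 0.936% of all genes. They included both type X collagens, which mark skeletal cells: col10a1a had 77.6, 91.7 and 256 and col10a1b had 46.6, 47.3 and 164. B1 and B2 were close for both, and B3 stood apart.

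Fibronectin led the matrix glycoproteins. fn1b had normalised counts of 12390, 14434 and 11102, ranked 5 in each pool and made up 57.2% of the reads of its list. Its paralog fn1a had 2460, 2580 and 878 (CV 48.2%), so the ratio of fn1b to fn1a reads was 5.04, 5.60 and 12.6. Sparc, a collagen-binding matricellular protein, was at 1593, 1664 and 1406, periostin b (postnb), a matrix protein of wound and blastema, at 1158, 1017 and 1167, and tenascin C (tncb) at 1121, 1373 and 934. These 3 genes differed less between pools than fn1a did. The actinodin gene and1, whose product builds the actinotrichia that support the fin edge, had 42.6, 62.0 and 150, and and2 had 0.427, 0.508 and 6.20. For both actinodins B3 was highest.

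Proteases that remodel this matrix took fewer reads. The membrane-bound collagenases mmp14b and mmp14a had 454, 519 and 713 and 398, 402 and 478, and the inhibitor timp2b had 403, 393 and 509. The gelatinase mmp9, made by wound epidermis and leukocytes, had 104, 151 and 332 (CV 61.5%) and its B3 value was over 2-fold that of either other pool. Collagenase mmp13a was near its floor in B1 and B2 at 0.427 and 0.305, and was at 9.65 in B3.

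Actin cytoskeleton genes took 3.63%, 3.59% and 3.38% of the reads, and 0 of 54 had a 2-fold spread, against 4.16% of all genes. The cytoplasmic actins actb2 (9382, 10030 and 9390) and actb1 (6003, 6268 and 5078) ranked eighth and twelfth by mean. Non-muscle myosin heavy chain myh9b was at 1852, 1994 and 1544, and the actin crosslinker filamin (flna) at 2534, 2394 and 1578. In the other filament list, tubb4b, a tubulin, was at 1537, 1651 and 1316. The nuclear lamin gene lmna had 1182, 1082 and 572, the member of that list with a 2-fold spread. flna and lmna were both lowest in B3.

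**Figure D3:**
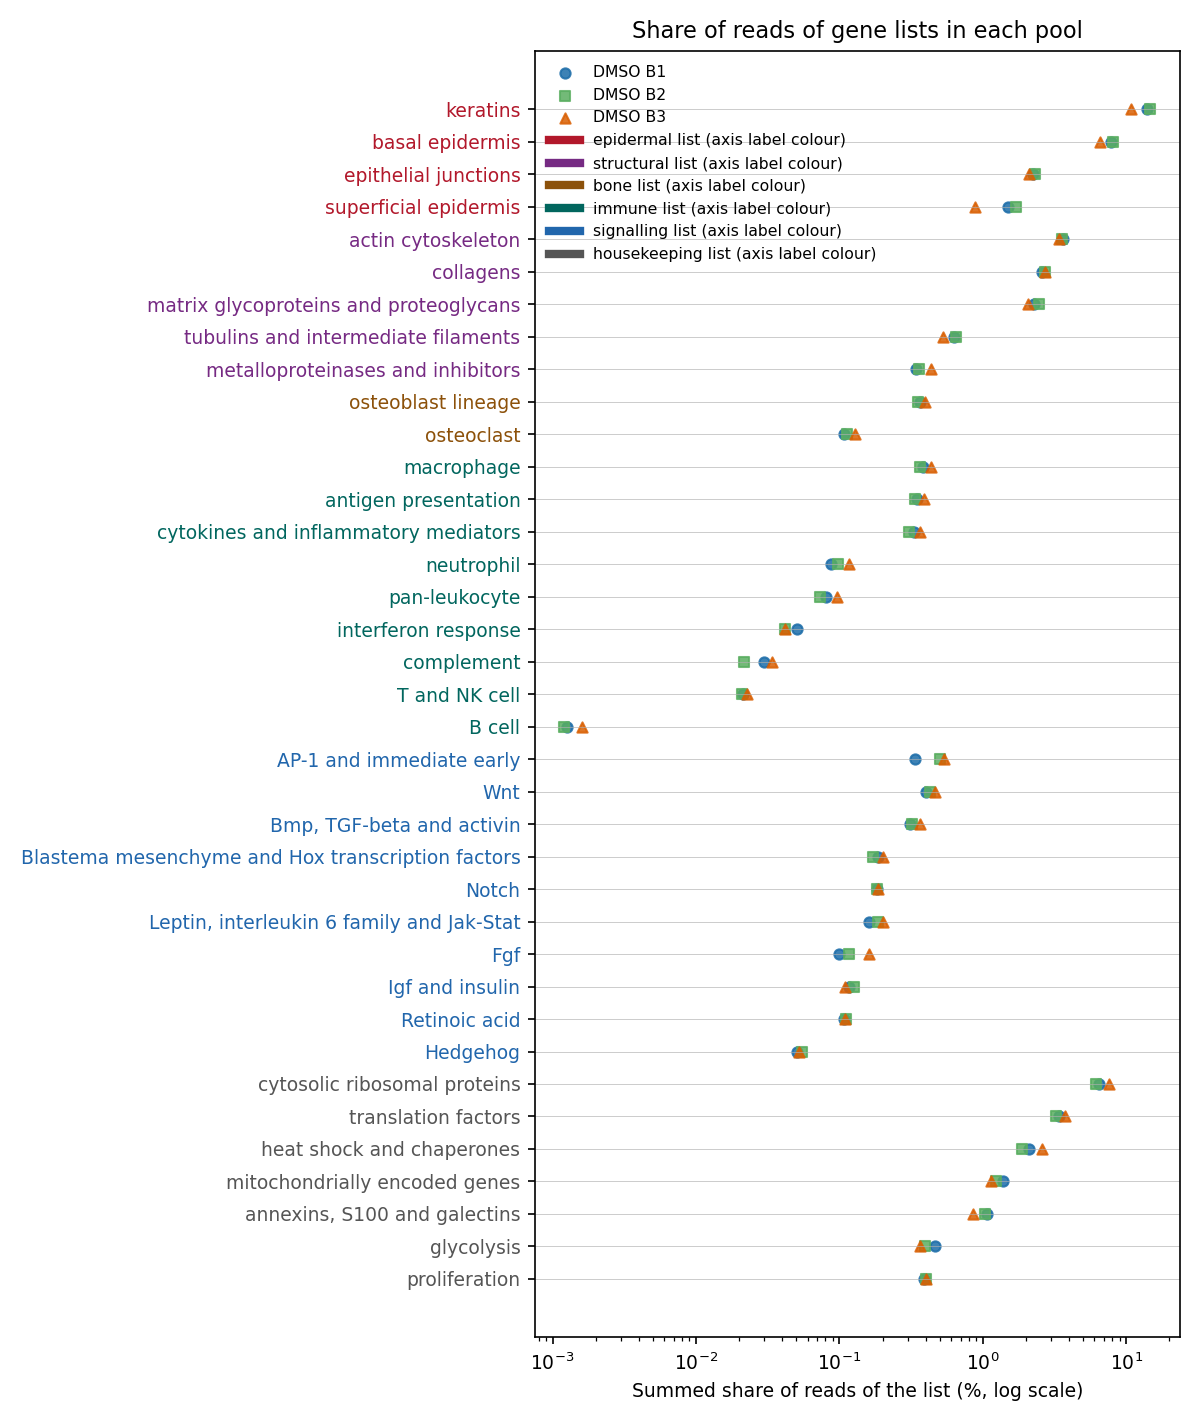
Summed share of reads (%, log axis) of each gene list in the 3 DMSO pools, with list names coloured by category. The keratin list is highest at 10.9% to 14.8%, and superficial epidermis and AP-1 show the pools further apart than collagens or Notch do.

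Bone genes took little of the reads, and most of that lay in matrix genes that other tissues also express. The type I collagens were not on the bone lists. col1a1a, col1a1b and col1a2 took a mean of 0.497%, 0.544% and 0.399% of the reads, against 0.491% for all listed bone genes. The small bone share therefore depends on that choice. Of 30 measured osteoblast lineage genes, 27 had a mean of at least 1, as did 15801 of all 19822 genes. A mean of at least 100 was reached by 6, and sparc alone held 42.7% of the list. Osteopontin (spp1), a mineral-binding bone protein, had 126, 120 and 140, and the distal-less factor dlx3b had 155, 135 and 210. The transcription factors that specify osteoblasts took few reads, with runx2b at 11.7, 12.8 and 8.43 and sp7 (osterix) at 10.5, 8.43 and 8.48. The osteocalcin-like gene bglapl was at 0.194, 0.169 and 0.795. sp7 and runx2b had reads in every pool, as did all but 311 of the 19822 genes. The lowest and highest values of sp7 and runx2b were 1.25-fold and 1.52-fold apart.

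Of the osteoclast list, 15 of 16 measured genes had a mean of at least 1, against 15801 of all 19822 genes. Cathepsin K (ctsk), the protease that degrades bone collagen, had 270, 294 and 304 (CV 5.97%). Carbonic anhydrase (ca2), also used by other cells, had 195, 194 and 167, and the receptor csf1ra, shared with macrophages and xanthophores, had 98.9, 119 and 98.1. Of 36 bone genes with a mean of at least 5, 5 had a 2-fold spread, a larger share than the 4.16% of all genes. Relative to the mean of B1 and B2, 2 were at least 2-fold higher in B3, mmp9 and col10a1a, against 0.936% of all genes. Another 2, both on the osteoclast list, were at least 2-fold lower, against 1.29%. On that list, 9 of 13 genes with a mean of at least 5 were lowest in B3, against 44.3% of all genes.

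Immune genes were led by few members that other cells also make. Apolipoprotein E (apoeb), high in macrophages, had 2326, 2394 and 2829, ranked 29 by mean, and made up 65.7% of the macrophage list. Its B3 value was the highest, but the 3 pools stayed within a CV of 10.9%. Annexin anxa1a, a regulator of inflammation that epithelia also express, had 1388, 1306 and 1071. The macrophage pore-forming gene mpeg1.1 had 52.9, 45.5 and 52.2 (CV 8.22%), and cd68, a lysosomal protein of phagocytes, had 155, 131 and 127. The ratio of apoeb to mpeg1.1 reads was 43.9, 52.7 and 54.2.

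Neutrophil markers were lower and less stable. Myeloperoxidase (mpx) had 8.47, 10.6 and 26.6 (CV 65.0%), and the neutrophil protease gene npsn had 9.13, 8.73 and 39.97. In both the B1 and B2 pools were close and B3 was over 2-fold above their mean. Among 13 neutrophil genes with a mean of at least 5, 8 were highest in B3 and 4 were lowest there. Over all genes, 63.9% were highest in a pool other than B3 and 44.3% were lowest in B3. In B3, 3 of the 13 were at least 2-fold above the mean of B1 and B2, against 0.936% of all genes. The gelatinase gene mmp9, which wound epidermis also makes, was among the 3. The list total, at 0.0869%, 0.0980% and 0.118% of reads, was dominated by adam8a (462, 531 and 359), a surface protease not limited to neutrophils, which was lowest in B3. Of 14 leukocyte-wide genes with a mean of at least 5, 2 were highest in a pool other than B3, against 63.9% of all genes. Among the other 12 were lcp1 (127, 117 and 169) and coro1a (63.3, 58.4 and 81.5), actin regulators of blood cells.

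Lymphocyte genes took few reads. Of the T and NK cell list, 12 of 18 measured genes had a mean of at least 1, against 15801 of all 19822 genes. The list took 0.0216% ± 0.000877 of the reads, and its leading gene bcl11bb (99.7, 101 and 61.4) has a mouse homolog that is also expressed in skin. Of the B cell list, 11 of 15 genes were not matched to any of the 19822 genes. The B cell receptor component cd79b was at 0 in all pools. Its zero allows up to 3 reads per pool.

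Of 40 inflammatory mediators with a mean of at least 5, 10 had a 2-fold spread, against 4.16% of all genes. The cytokine il1b had 16.1, 19.2 and 81.2, whereas nitric oxide synthase nos2a was lowest in B3, at 99.4, 58.7 and 23.9. Serum amyloid A (saa), an acute phase protein, had 276, 157 and 374, and the prostaglandin D synthase gene ptgdsb.1 had 267, 173 and 378. Both of these were lowest in B2 and highest in B3. The Tnf receptor tnfrsf1a had a CV of 1.16%. Counting alone gives 1.70% for nfkbiab, one of the 4 highest members of the list, and more for lower members. The CV of tnfrsf1a is therefore no measure of its stability. Interleukin 6 (il6) stood at a mean of 1.17.

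Of 23 antigen presentation genes 0 had a 2-fold spread, which is near the 4.16% of all genes for a list of this size. Class I gene mhc1uba had 734, 889 and 836, its partner b2m had 600, 570 and 537, and the class II invariant chain cd74a had 362, 343 and 487. The class II gene mhc2dab was an exception outside that count. It had 0 reads in B1 and B3 and 436 in B2, a normalised count of 14.8. This is at least 126.6-fold above the B1 floor and at least 92.79-fold above the B3 floor of 3 reads per library. Besides mhc2dab, 3 other genes with a mean of at least 1 had no read in some pool, among them the interferon-induced mxb at 3.46, 0.406 and 0.

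Interferon response genes showed a different order of pools. Of 16 members with a mean of at least 5, 11 were highest in B1, against 30.2% of all genes, and 11 were lowest in B3, against 44.3%. stat1a, the transcription factor of this response, did not show it, with 65.0, 65.9 and 69.1. irf1b had 66.7, 34.8 and 39.1.

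Signalling genes had a median rank of 6497 among the 19822 genes, and in reads, not divided by length, ligands lay below receptors. Of 74 ligand genes in 7 pathways, 62 had a mean of at least 1 and 24 of at least 10, with a median of 4.54. Of 67 receptor genes of the same pathways, 64 had a mean of at least 1 and 46 of at least 10, with a median of 27.6. Modulators and targets had a median of 17.3 over 87 genes. Of all 19822 genes, 15801 had a mean of at least 1, and the median was 8.65. The median CV was 22.6% for ligands, 12.7% for receptors and 16.6% for modulators and targets. Counting error is larger for low genes, so the difference in CV runs together with the difference in level.

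Beta-catenin was the exception among signalling genes, and serves both Wnt signalling and cell junctions. ctnnb1 had 1031, 1135 and 1072 and ctnnb2 had 917, 1035 and 1200, the only signalling members among the top 100. Of the Wnt ligands, wnt5b had 68.2, 94.8 and 82.7 and wnt5a had 43.0, 56.4 and 94.9963. wnt10a, a ligand of the early regenerate, was lower at 9.24, 11.8 and 7.10. The receptor fzd10 had 172, 164 and 144, and the secretion factor wls had 179, 182 and 190. The transcription factor lef1, an effector of Wnt signalling, had 67.3, 78.4 and 71.1. The CVs were 3.25% for wls, 7.82% for lef1 and 8.9969% for fzd10, and 16.3%, 25.0% and 41.7% for the ligands wnt5b, wnt10a and wnt5a.

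In the Fgf pathway the pools did differ. fgf20a, the ligand required to start fin regeneration in zebrafish, had 27.7, 48.8 and 63.7, and took the most reads of 10 measured Fgf ligands. The receptors fgfr2 (106, 114 and 91.4) and fgfr1a (48.0, 51.8 and 51.0) did not follow that order. The feedback genes and targets did: dusp6, a phosphatase of Erk, had 146, 228 and 232, the factor etv4 had 118, 156 and 192, and spry4, an inhibitor of receptor signalling, had 27.0, 45.9 and 68.9. Of 23 Fgf genes with a mean of at least 5, 18 were lowest in B1, against 29.1% of all genes. The binding protein gene fgfbp2a had the highest CV of any gene named here with a mean of at least 50, with 99.6, 59.198 and 292.

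TGF-beta family genes had tgfb1a as their leading ligand at 115, 131 and 178. The activin subunit inhbaa, needed for blastema formation in zebrafish, had 99.4, 130 and 74.7, and the bone-related ligand bmp2b had 20.4, 23.0 and 19.8. The receptor acvr1ba had 117, 128 and 140. The target id1, an inhibitor of differentiation, had 319, 288 and 390. tgfb1a was highest in B3 and inhbaa lowest there, so the ligands did not move as one.

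Retinoic acid is made by aldh1a2, which had 51.3, 43.7 and 89.2, and broken down by cyp26b1 (120, 138 and 108) and cyp26a1 (66.6, 84.6 and 24.9). In B3 the synthetic enzyme was highest and cyp26a1 lowest. The receptor rarga (205, 233 and 222) and the binding protein crabp2b (220, 234 and 221) varied by CVs of 6.60% and 3.47%. Hedgehog ligands were scarce: shha had 0.738, 0.711 and 0.901 and ihha had 6.21, 9.14 and 8.005. Downstream of them, the co-receptor cdon had 61.6, 72.3 and 68.1 and the factor gli2a had 147, 175 and 133.

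Notch genes took nearly the same share in each pool, at 0.182%, 0.184% and 0.185% of the reads. Of 27 members 0 had a 2-fold spread, which is near the 4.16% of all genes for a list of this size. The receptors notch3 and notch2 had 286, 310 and 298 and 267, 302 and 244, and the ligand jag1a had 94.97, 136 and 95.4. The target nrarpa had 116, 100 and 112. For Igf signalling, igf2b had 125, 131 and 84.5, the insulin receptor insra 43.9, 45.7 and 37.5, and the binding protein igfbp5b 143, 162 and 89.0. Each of these Igf genes was highest in B2 and lowest in B3. Of 26 members with a mean of at least 5, 18 were highest in B2, against 33.7% of all genes.

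Leptin b (lepb), a cytokine gene induced by injury in zebrafish fins, had 51.9, 68.2 and 80.7. The shared receptor il6st had 155, 162 and 133, the kinase jak1 had 219, 227 and 227 and stat3 had 103, 119 and 99.03. The targets pim1 (319, 475 and 456) and socs3a (162, 275 and 290), the latter a feedback inhibitor, were lowest in B1, as was lepb. jak1 was also lowest in B1, by little (CV 2.06%), while il6st was lowest in B3.

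AP-1 and other immediate early genes, which are induced within minutes of stimulation, had the largest share of members with a 2-fold spread among lists with at least 10 members at a mean of 5. They took 0.338%, 0.504% and 0.537% of the reads, and 18 of 30 members with a mean of at least 5 had a 2-fold spread, against 4.16% of all genes. Of the 30, 26 were lowest in B1, against 29.1% of all genes. fosab had 44.0, 155 and 177, egr1 had 81.6, 159 and 250, jun had 127, 186 and 271, and klf2a had 224, 639 and 313. B1 lay below both other pools in each of these. junba, which took the most reads of the list, was nearly even at 606, 678 and 670, a CV of 6.01%.

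Blastema and positional factors had a median CV of 15.12%, above the 11.8% of all genes with a mean of at least 1. The mesenchymal factor prrx1a had 157, 167 and 174, sox9b had 308, 286 and 295, twist2 had 31.6, 31.1 and 32.9, and msx1b, a blastema marker, had 51.2, 53.0 and 71.8. The distal Hox genes hoxa13b and hoxc13a had 58.8, 69.6 and 79.5 and 41.1, 38.1 and 39.7. tph1b, expressed in fin fibroblasts, had 95.4, 137 and 147. Of 29 members with a mean of at least 5, 1 had a 2-fold spread, close to the 4.16% of all genes. Among proliferation genes it was 0 of 33, and the replication clamp pcna had 199, 207 and 218.

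Several housekeeping lists differed between pools in a single direction. All 13 measured genes of the mitochondrially encoded list were highest in B1 and lowest in B3, against 30.2% and 44.3% of all genes. Another 2 of the 15 listed were not matched to any of the 19822 genes. mt-co1, a subunit of cytochrome oxidase, was at 5255, 4678 and 4147. Of 82 cytosolic ribosomal protein genes with a mean of at least 5, 72 were highest in B3 and 66 lowest in B2, but 0 had a 2-fold spread. Of all genes, 63.9% were highest in a pool other than B3 and 26.6% were lowest in B2. rps2 had 2542, 2514 and 2955. Of 39 chaperone genes, 32 were highest in B3 and 35 lowest in B2, with hspa8 at 4760, 4496 and 5888 and the inducible hsp90aa1.2 at 275, 118 and 503.

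Of 22 glycolytic genes with a mean of at least 5, 18 were highest in B1 and 19 lowest in B3, against 30.2% and 44.3% of all genes. Lactate dehydrogenase ldha had 177, 98.5 and 71.7, pyruvate kinase pkma had 591, 552 and 351, and aldolase aldoaa had 462, 407 and 340. ldhba, the other lactate dehydrogenase subunit, did not follow, with 314, 324 and 373. The stress genes hmox1a, for heme oxygenase, and ndrg1a were also highest in B1, at 136, 51.8 and 43.9 and at 122, 49.8 and 38.9.

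**Figure D4:**
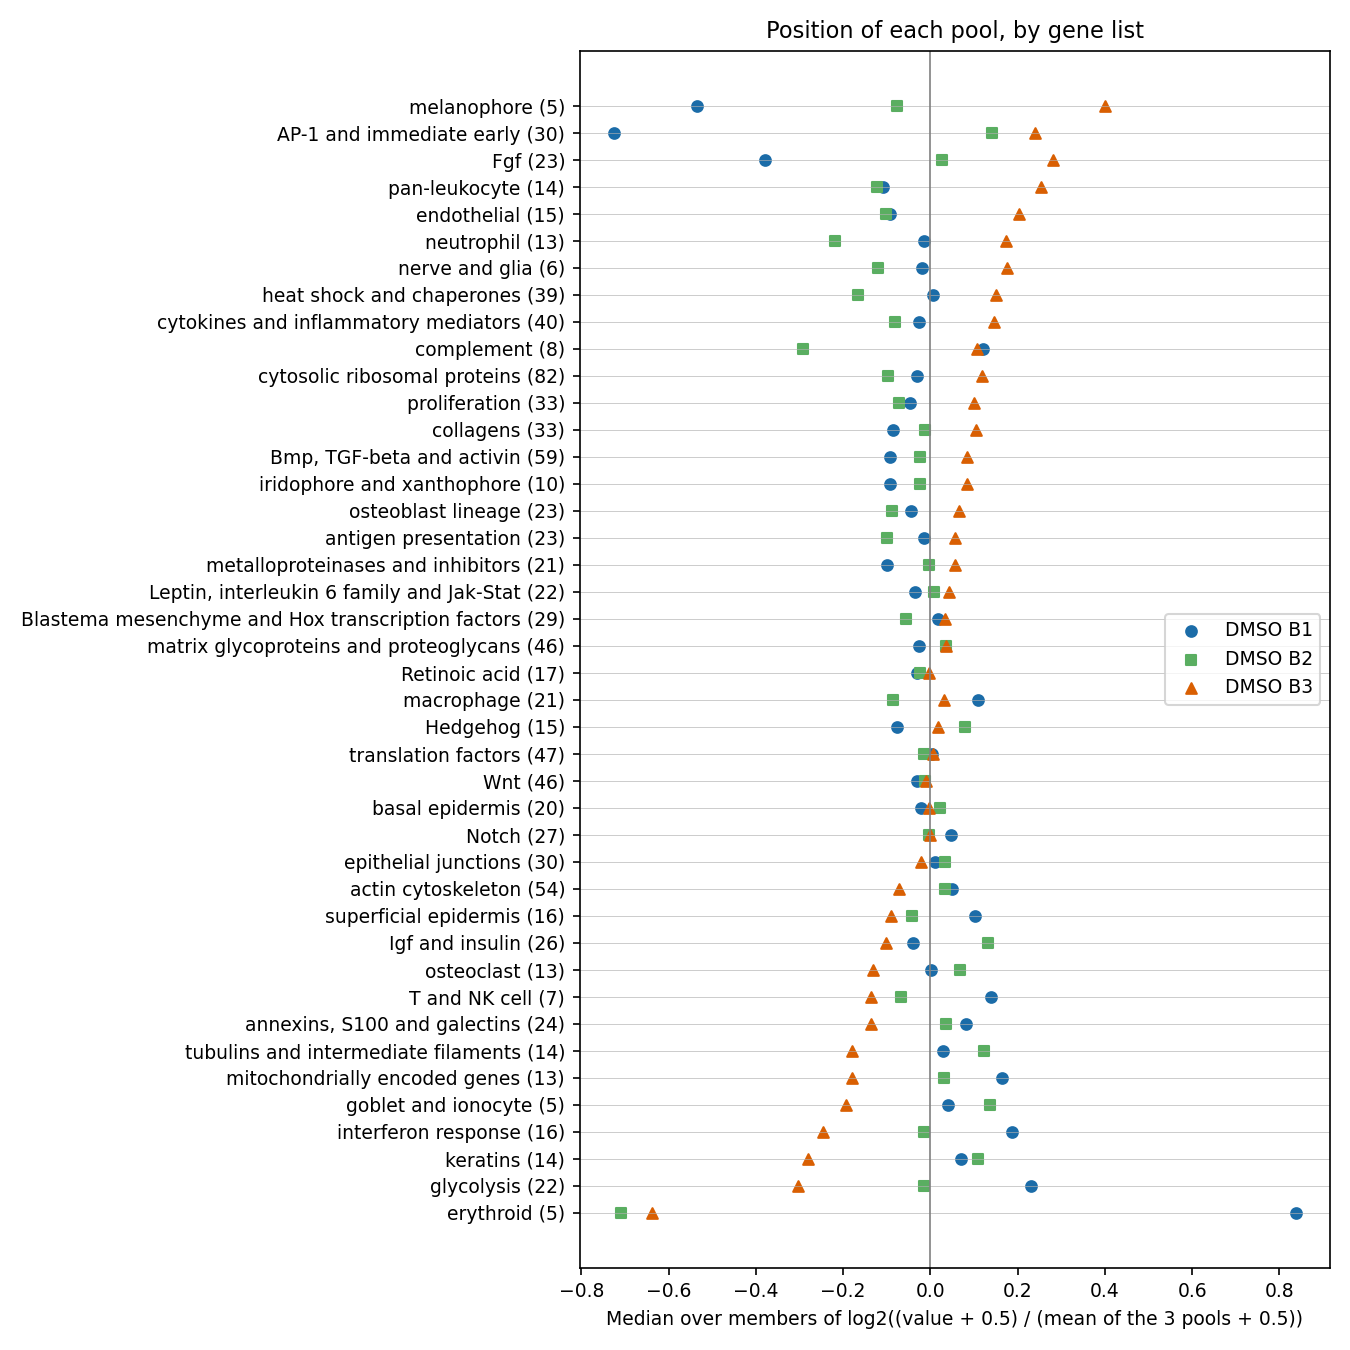
Position of each DMSO pool by gene list: the horizontal axis is the median over members of log2 of the value over the mean of the 3 pools, after adding 0.5, and numbers in brackets count members with a mean of at least 5 (lists with at least 5 of them). AP-1 has B1 at -0.73, erythroid has B1 at 0.84, and the lists of ribosomal proteins, chaperones and keratins have B3 on one side of both other pools.

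Markers of other cell types were measured to check the label of the tissue. The 121 genes listed for vessels, blood, pigment cells, nerve, muscle, mucous and ion-transporting cells, lateral line and internal organs took 0.152% ± 0.00475 of the reads. A mean of 100 was reached by 2 of them, both on the iridophore and xanthophore list, which atic led. Of all 19822 genes, 93 stood at 1000 or more and 1400 between 100 and 1000. Epidermal, bone and blastema markers named above had reads in each pool, but so did all but 311 of the 19822 genes. Reads in each pool therefore cannot test the label. The pancreatic elastase ela2l was at 3.30, 2.23 and 4.08. Of the genes of liver, pancreas and eye, 28 of 34 were not matched to any of the 19822 genes, so their levels are unknown. For skeletal muscle 23 of 28 were likewise not matched, and the highest of the rest was tnnt3b at 5.75, 7.65 and 5.51.

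Some of these markers differed between pools. Globin hbaa1 had 62.5, 18.9 and 21.9, and 5 of 5 erythroid genes with a mean of at least 5 were highest in B1, against 30.2% of all genes. The melanophore genes tyrp1b (18.2, 24.7 and 37.2) and pmela (12.4, 17.9 and 26.3) were lowest in B1 and highest in B3. Mucin muc5.2, of goblet cells, had 125, 119 and 45.3, and agr2, of secretory cells, had 39.8, 33.0 and 17.1. All 5 goblet and ionocyte genes with a mean of at least 5 were lowest in B3, against 44.3% of all genes, but the ionocyte genes atp6v1aa (97.0, 97.1 and 88.7) and atp1a1a.3 (8.51, 8.36 and 8.16) hardly differed. The endothelial gene plvapb had 49.3, 54.6 and 71.8 and kdrl had 39.7, 40.2 and 35.7. The globin, pigment and mucin genes named here therefore differed along with AP-1, glycolysis and keratin genes, and their part in those results was not tested.

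Over all genes, the spread between pools was smaller at higher abundance only up to a point. Among the 15801 genes with a mean of at least 1, the median CV was 11.8%, where counting alone would give a median of 5.39%. The CV was under 10% for 6683 genes (42.3%) and over 50% for 430 (2.72%). The median CV fell from 17.4% for genes with a mean of 1 to 10 to 9.33% for those at 10 to 100 and 7.78% for those at 100 to 1000. It was 10.6% for the 93 genes at 1000 or more, for which counting gives 0.492%. The most abundant genes, keratins among them, thus had a larger median CV than the classes from 10 to 1000.

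**Figure D5:**
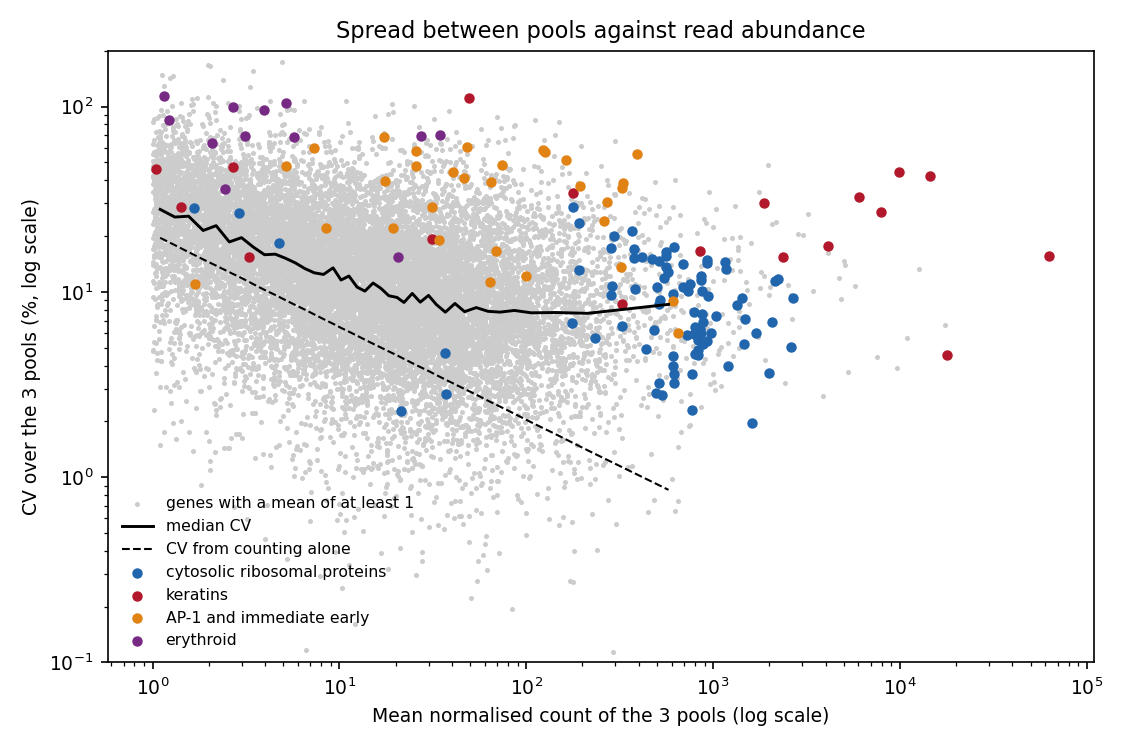
CV over the 3 DMSO pools (%, log axis) against mean normalised count (log axis) for genes with a mean of at least 1, with the running median and the CV that counting alone gives. Ribosomal protein genes have a median CV of 8.61%, near the 7.78% of all genes with means of 100 to 1000. Several keratins with means above 1000 reach CVs of 27.1% to 44.1%, and most AP-1 and erythroid genes lie above the median line.

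B1 and B2 were the most alike. Over 11749 genes with a mean of at least 5, 90 genes (0.766%) differed at least 2-fold between B1 and B2, compared with 350 (2.98%) between B1 and B3 and 277 (2.36%) between B2 and B3. The top 100 genes of B1 and B2 had 96 members in common, against 88 for B1 and B3 and 89 for B2 and B3. In all, 489 genes (4.16%) had a highest pool at least 2-fold the lowest, and B3 was the pool furthest from the others in 151 of them as high and in 173 as low. Relative to the mean of B1 and B2, 110 genes were at least 2-fold higher in B3 (0.936%) and 151 at least 2-fold lower (1.29%). B3 was also the shallowest pool, and its depth and batch cannot be told apart.

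The share of genes with a 2-fold spread differed between categories. It was 7 of 69 epidermal, 14 of 168 structural, 5 of 36 bone, 20 of 140 immune and 37 of 293 signalling genes with a mean of at least 5. Each of these exceeds the 4.16% of all genes, and housekeeping genes were at 10 of 260. With B3 left out, the median CV of genes with a mean of at least 1 was 6.75%. This is a CV over 2 pools, to be set beside 11.02% without B1 and 11.09% without B2, not beside the 11.8% over 3 pools.

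Among genes with a mean of at least 50, csnk1a1 had the lowest CV. csnk1a1, a casein kinase, had 292.4, 292.5 and 291.9. Others among the 15 lowest CVs were rad23b (a DNA repair and proteasome shuttle factor), srsf6a (splicing), dhx15 (an RNA helicase of splicing), rab18b (a membrane traffic GTPase), idh3a (citrate cycle), atp5pb (ATP synthase) and nsfb (membrane fusion). The remaining 7 were rimkla, rnf170, tmcc3, apeh, agpat9l, rnf128a and lclat1. The CVs of the 15 ran from 0.113% to 0.487%, below the CV that counting alone gives for each of them, so neither their order nor their place among the 15 is meaningful. At the other end were fgfbp2a (CV 82.7%), steap4 (79.5%), a metalloreductase, col10a1b (78.8%), slc16a12b (76.3%), a monocarboxylate transporter family member, and gldc (75.7%), the glycine cleavage enzyme. Each of these 5 was highest in B3. Also among the 15 highest CVs were hmox1a, ndrg1a, nos2a and sult2st3, which were highest in B1, and the rest of the 15 were highest in B3. Over all genes with a mean of at least 5, 63.9% were highest in a pool other than B3.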

How the data were processed

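Stranded poly(A) libraries had been aligned with STAR 2.7.10a to GRCz11, per the submitters' processing notes. Neither the counter, its use of strand, the annotation nor the normalization is given in the sources used here. Values of overlapping or antisense genes, of closely similar paralogs and of 192 identifiers with a shared symbol are therefore uncertain. The deposited signal is called normalised counts by the authors, with 1 column for each library. In each DMSO column 100% of values were whole multiples of the smallest value above 0, within 0.01 of a read, which gave the reads; as no groups were compared, no count test was run. Groups came from the labels, and n counts pools.

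Of the identifiers, 17647 had a symbol in the file, 1485 were named from a zebrafish name table and 690 had none. Among these was ENSDARG00000080337, at rank 3 by reads and left out of the named genes. It took 1.79% of the reads, was highest in B3 and lowest in B2, and without a name could be on no list. Transcript lengths, sequences and coordinates were not used here.

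Python 3.11.15 with pandas 2.3.3 and numpy 2.4.6 gave shares of reads, ranks, means, SDs and CVs, and scipy 1.17.1 the 95% Wilson intervals. CVs used genes with a mean of at least 1, and 2-fold spreads and pool orders those with a mean of at least 5. Members and lists were chosen with earlier results of these data known. Named were the 30 genes with the most reads, the 4 highest of each list, the highest ligand, receptor and target of each pathway, the 15 highest and lowest CVs at a mean of at least 50, and 10 regeneration genes. All other genes in the text were named after their values were seen, as was the removal of icn and icn2 from the keratins.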

Additional observations from a re-analysis of the deposited data

How the results depend on the processing

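The median CV was the only result that moved beyond the limits given below. The median CV of 11.8% was 14.6% with no filter on low genes, which adds genes with few reads. With any 1 pool left out it was 6.75% to 11.09%, lowest without B3. These are CVs over 2 pools, to be compared with each other and not with the 11.8% over all pools. Of all 79 alternatives, 77 moved their result by less than the spread between pools (counts of genes by less than 1.5 times). The 2 exceptions are the median CV without a filter and without B3. The latter is a CV over 2 pools set against one over all pools, so its size cannot be put down to B3 alone. Several of the 77 could not move. Rescaling a whole library leaves its shares and concentration of reads unchanged. Category shares with shared symbols summed were taken over from the main result. Those alternatives therefore say nothing of stability. Category shares, concentration of reads and the 30 genes with the most reads had no exception. With 1 pool left out, epidermal genes took 15.6% to 17.7% of the reads, structural 9.30% to 9.61%, signalling 2.05% to 2.26%, immune 1.30% to 1.42% and bone 0.472% to 0.501%, and 28 to 30 of the 30 genes stayed. Orders per kilobase were planned and not run, since no transcript lengths were used here. With icn and icn2, a change made after the data were seen, the keratin share was 13.3% ± 2.06 in place of 13.2% ± 2.04. No paired analysis was possible because no result came from a test and 1 group was described. Depth limits genes under a mean of 10. Counting alone gives a median CV of 10.5% at a mean of 1 to 10 and 32.9% below 1.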
